A study of Mus musculus with 12 samples.

Results

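The 10 genes described here mark the sinusoidal endothelial cells of the liver or encode signals that these cells send to hepatocytes: the angiocrine ligands Wnt2, Wnt9b, Rspo3 and Bmp2, the transcription factors Gata4 and Maf, and the surface or secreted markers Lyve1, Clec4g, Oit3 and Kdr. They were taken by name from the table of 24187 genes, all 10 were present, and all 10 were among the 22581 genes that passed the filter on low counts. Bulk RNA was sequenced from the livers of young adult C57BL/6J mice. Control mice (n = 3) had no APAP (acetaminophen, paracetamol) injury. Vehicle mice (n = 5) received APAP followed by PBS, and hAAM mice (n = 4) received APAP followed by hAAMs. These are human alternatively activated macrophages grown from donor monocytes with CSF1 and polarized with IL-4 and IL-13. The labels give the APAP dose of both groups as 350 mg/kg, whereas the study's methods name a higher dose beside it, so the dose of these livers is not certain. No transgene or deletion was carried by any group. The time between APAP and collection is not given by the labels of these livers, and the hAAMs are human cells in a mouse host. The labels of the controls name neither APAP nor PBS. The study's methods name a saline vehicle as the alternative to APAP, so whether the controls were injected is not certain.

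The sinusoids are the capillaries of the liver, and their endothelium differs from that of other vessels in its open pores, its lack of a firm basement membrane and its set of scavenger receptors. Endothelial cells near the central vein secrete Wnt2 and Wnt9b, and R-spondin 3 amplifies Wnt signaling by holding Frizzled receptors at the cell surface. Hepatocytes around the central vein answer through beta-catenin, which maintains the pericentral gene program and takes part in regeneration. Bmp2 from the same endothelium acts on hepatocytes to control hepcidin and so iron. Gata4 and Maf hold endothelial cells in the sinusoidal state. APAP kills the hepatocytes around the central vein, next to the endothelium that makes these Wnts.

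The start regions of both Wnt ligands and of Clec4g are shown because Gata4 and Maf, the regulators within the set, were measured in the same livers. Sequences came from the RefSeq promoter table (GRCm38.p6), in which 4 of the 10 genes had an entry, Wnt2, Wnt9b, Clec4g and Kdr. Each window of 300 bases was searched on both strands for the GATA motif (the letters GATA with A or T before them and A or G after them) and for the core of the MAF half-site (TGCTGA), and the motifs do not overlap each other. Capitals mark a match. All 3 genes lie on the minus strand, and the sequences read 5′ to 3′ along that strand, ending just before the annotated 5′ end of the gene (chr6:18030586-18030695 for Wnt2, chr11:103749822-103750071 for Wnt9b and chr8:3720652-3720901 for Clec4g).

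Wnt2: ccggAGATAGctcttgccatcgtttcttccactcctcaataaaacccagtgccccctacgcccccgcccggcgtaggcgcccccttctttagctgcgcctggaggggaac

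Wnt9b: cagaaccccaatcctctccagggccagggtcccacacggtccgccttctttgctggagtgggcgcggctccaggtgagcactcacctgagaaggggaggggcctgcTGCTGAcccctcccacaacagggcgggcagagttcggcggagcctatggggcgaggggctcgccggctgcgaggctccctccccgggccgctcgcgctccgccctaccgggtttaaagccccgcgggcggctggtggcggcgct

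Clec4g: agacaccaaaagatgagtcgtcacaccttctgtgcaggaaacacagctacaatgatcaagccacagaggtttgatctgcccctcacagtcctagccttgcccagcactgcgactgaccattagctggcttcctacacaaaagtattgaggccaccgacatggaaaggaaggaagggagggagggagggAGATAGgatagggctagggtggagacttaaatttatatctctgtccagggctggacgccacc

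The Wnt2 match began 246 bases upstream of the RefSeq start, and a further GATA match on the other strand, 9 bases upstream, lay beyond the bases printed. Wnt9b had a MAF half-site 144 bases upstream and Clec4g a GATA match 62 bases upstream, whereas the Kdr window held neither motif. Of the 32851 promoter windows in the table, 29.8% held the GATA letters and 19.5% the MAF letters, so these matches describe the sequences and show no binding.

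Between 47391650 and 74056505 reads per liver were counted to genes, with medians of 62192043 in control, 55561428 in vehicle and 50844350 in hAAM livers. Vehicle 3 and hAAM 4 were almost the same library: the spread between their counts was 1.2 times counting noise, and the remaining 65 pairings of livers ranged from 2.86 to 10.9. Values without both are given for the 10 genes, for genes named from the lists whose call changed, and for list counts that moved by over 1.5 times. The other list counts that changed without both did so by 1 gene, or by 2 genes for the recruited macrophage markers in hAAM livers (8 in place of 6 higher). The liver label held, with the summed level of 8 hepatocyte markers between 58100 and 101000 CPM (reads scaled to library size) in each liver. The labels do not say beyond the replicate numbers that each library is a separate mouse, so p-values measure the spread between these libraries.

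Set by length (CPM per kilobase of exon), Clec4g and Oit3 were the most abundant of the set and the 2 Wnt ligands the least. In control livers Clec4g had the highest level, 14.5 ± 0.259 (SD, n = 3), and Oit3 followed at 9.30 ± 0.688, Kdr at 8.18 ± 0.534, Gata4 at 6.78 ± 0.513, Bmp2 at 6.35 ± 0.897, Maf at 5.06 ± 0.753 and Lyve1 at 3.67 ± 1.42. The last were Rspo3 at 1.41 ± 0.0473, Wnt2 at 0.902 ± 0.411 and Wnt9b at 0.339 ± 0.122. Between neighbors in this order, Oit3 and Kdr overlapped among the livers, as did Gata4 with Bmp2, Bmp2 with Maf and Maf with Lyve1, and the other neighbors were apart. Oit3 led in both APAP groups (12.4 ± 1.58, n = 5, in vehicle livers and 11.9 ± 0.172, n = 4, in hAAM livers), and Lyve1, which was 7th in control livers, was 3rd in both. Among vehicle livers the neighbors from Oit3 down to Kdr overlapped, Kdr and Gata4 did not, the neighbors from Gata4 to Bmp2 overlapped, Bmp2 and Rspo3 did not, and Rspo3, Wnt2 and Wnt9b overlapped in turn.

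The first question was whether the endothelial signals to hepatocytes changed in the injured liver. None of the 4 angiocrine ligands passed the test in either APAP group, and none had groups without overlap. Lyve1 and Oit3 rose in both APAP groups, so 2 of the 10 genes were called higher and 0 lower in vehicle against control livers and again in hAAM against control livers. Among all 22581 genes tested, 15.0% were called higher and 14.8% lower in vehicle livers, and 10.7% and 9.96% in hAAM livers, and the 2 of 10 stand near those shares. The median log2 fold change of the 10 genes was -0.11 in vehicle and -0.14 in hAAM livers, against 0.01 and 0.02 over all genes tested. Both comparisons use the same 3 control livers. In bulk liver, fewer endothelial cells and less RNA per endothelial cell cannot be told apart.

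Wnt2 (ENSMUSG00000010797, chr6:17988940-18030585) is the Wnt ligand most associated with sinusoidal endothelium and supports hepatocyte proliferation. It had 60 to 152 reads per liver. Its level was 2.90, 1.05 and 2.15 CPM in the control livers and 2.15, 2.21, 1.16, 1.86 and 1.42 CPM in the vehicle livers. In hAAM livers it was 2.02, 1.35, 1.18 and 1.16 CPM. The control livers alone spanned a 2.75-fold range, control 2 was the lowest liver of all, and the 3 groups overlapped. The log2 fold change was -0.20 (SE 0.316, edgeR adjusted p = 0.664) in vehicle against control, with an interval of 2 SE from -0.83 to 0.43. In hAAM against control it was -0.50 (SE 0.334, adjusted p = 0.306, interval -1.17 to 0.16). Without control 1 the vehicle value was 0.14.

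Wnt9b (ENSMUSG00000018486, chr11:103727364-103749821) encodes the ligand of central vein endothelium. It was the least abundant of the set, with 44 to 163 reads per liver. Control livers had 2.08, 0.975 and 1.54 CPM, and vehicle livers 2.80, 1.58, 0.852, 1.85 and 1.98 CPM. The hAAM livers had 1.70, 1.80, 1.07 and 0.952 CPM. Vehicle livers held both the highest and the lowest value. Against control, the log2 fold change was 0.25 (SE 0.357, adjusted p = 0.628) in vehicle livers and -0.15 (SE 0.374, adjusted p = 0.813) in hAAM livers. The intervals, -0.46 to 0.96 and -0.89 to 0.60, leave room for a change of nearly 2-fold in vehicle livers.

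Rspo3 (ENSMUSG00000019880, chr10:29452416-29535867) encodes the R-spondin of central vein endothelium and stellate cells, which acts through Lgr receptors. Control livers were close together at 4.33, 4.22 and 4.5 CPM. Vehicle livers spread around them, at 4.68, 3.46, 2.98, 3.89 and 4.39 CPM, and hAAM livers spread further, at 5.39, 4.07, 3.49 and 2.88 CPM. The lowest liver in each APAP group was one of the near-identical pair. Its change was log2 -0.16 (SE 0.193, adjusted p = 0.558) in vehicle livers and -0.14 (SE 0.203, adjusted p = 0.672) in hAAM livers. The annotation has an antisense gene over 404 bases of Rspo3 exon, and the strand setting of the counting is not given in the sources used here.

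Bmp2 (ENSMUSG00000027358, chr2:133552159-133562885) encodes the BMP ligand through which the endothelium sets hepcidin in hepatocytes. Its control levels were 21.6, 20 and 26.2 CPM and its vehicle levels 18.8, 25.4, 23.3, 17.8 and 18.4 CPM. In hAAM livers they were 17.1, 14.6, 16.0 and 23.4 CPM. The first 3 hAAM livers were below all control and vehicle livers, and hAAM 4, one of the near-identical pair, was within the control range. The log2 fold change was -0.12 (SE 0.164, adjusted p = 0.602) in vehicle livers and -0.34 (SE 0.172, adjusted p = 0.174) in hAAM livers. Without both near-identical libraries the hAAM value was -0.50 (SE 0.151) and passed the test (adjusted p = 0.0418).

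Neither transcription factor passed the test. Gata4 (ENSMUSG00000021944, chr14:63198922-63271692), the master regulator of sinusoidal endothelium, was at 28.2, 24.3 and 26.9 CPM in control livers and at 26.4, 25.3, 19.6, 24.5 and 23.4 CPM in vehicle livers. In hAAM livers it was at 25.4, 23.5, 24.3 and 20.7 CPM. The groups overlapped, and its lowest values were again vehicle 3 and hAAM 4. The log2 fold change was -0.15 (SE 0.0998, adjusted p = 0.277) in vehicle livers and -0.17 (SE 0.105, adjusted p = 0.261) in hAAM livers. Maf (ENSMUSG00000055435, chr8:115682942-115707794), the c-Maf factor, which macrophages also express, was at 35.2, 47.5 and 42.4 CPM in control livers. It was at 52.7, 49.6, 42.0, 53.8 and 46.2 CPM in vehicle and 51.3, 46.1, 43.8 and 44.0 CPM in hAAM livers. All vehicle and hAAM livers were above control 1, and control 2 was within both APAP groups. The log2 fold change was 0.23 (SE 0.109, adjusted p = 0.132) in vehicle and 0.15 (SE 0.113, adjusted p = 0.369) in hAAM livers. An antisense gene covers 440 bases of Maf exon.

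The 4 surface and secreted markers moved apart from each other: Lyve1 and Oit3 rose, Kdr did not pass the test, and Clec4g was lower in each APAP liver than in any control liver, at adjusted p values just above the threshold of 0.05. These 3 of the 10 genes (Lyve1, Oit3 and Clec4g) had CPM ranges that did not overlap with control in either APAP group, where 34.8% of all genes tested did so in vehicle and 28.5% in hAAM livers.

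Lyve1 (ENSMUSG00000030787, chr7:110850607-110863239) encodes the hyaluronan receptor of sinusoidal and lymphatic endothelium, which a subset of macrophages also carries. Control livers had 8.58, 15.5 and 8.06 CPM. Vehicle livers had 23.7, 24.5, 19.0, 24.7 and 39.6 CPM, and hAAM livers 16.8, 30.4, 30.6 and 17.7 CPM. Each APAP liver was above each control liver, although hAAM 1 exceeded control 2 by little. Lyve1 rose 2.45-fold in vehicle livers (log2 1.29, SE 0.306, adjusted p = 0.00869) and 2.22-fold in hAAM livers (log2 1.15, SE 0.315, adjusted p = 0.0241). The hAAM call was lost without control 1 (adjusted p = 0.0838), control 3 (0.0943) or hAAM 2 (0.062), with log2 values of 0.99 to 1.02 in these fits, while the vehicle call was kept without any one liver.

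Markers of macrophages and of lymphatic endothelium changed as well. Of 8 markers of recruited monocytes and macrophages, 6 rose in each APAP group, including Chil3, Gpnmb and Trem2 (log2 5.67, 4.54 and 2.78 in vehicle livers). The summed level of these 8 was 27.1 to 40.6 CPM in control, 89.5 to 379 CPM in vehicle and 88.1 to 321 CPM in hAAM livers. Of 8 Kupffer cell markers, Marco rose and Xcr1, which is better known from dendritic cells, fell in vehicle livers, with the Xcr1 call lost when any single control liver or vehicle 4 was left out, and the sum was 189 to 255 CPM in control, 212 to 348 CPM in vehicle and 223 to 318 CPM in hAAM livers. Of 5 lymphatic markers, 0 rose, and Ccl21a and Prox1, of which Prox1 is also a hepatocyte gene, fell in vehicle livers (log2 -1.07, adjusted p = 0.0481, and -0.63, adjusted p = 0.0272). In hAAM livers Prox1 fell from 335 ± 70.3 CPM in control (SD, n = 3) to 166 ± 42.4 CPM (n = 4; log2 -1.02, edgeR adjusted p = 0.00614), a call kept when each liver was left out in turn, and Ccl21a had -0.83 (adjusted p = 0.158). In vehicle livers neither was called without control 2, vehicle 4 or vehicle 5 or by total counts alone, and Prox1 was not called without the near-identical pair (adjusted p = 0.053). Without control 2 the Ccl21a value was only -0.29 (edgeR adjusted p = 0.502), and its call was also lost without vehicle 1, vehicle 2, hAAM 2 or hAAM 4. None of these markers was at 0 in every liver of a group, and the part of macrophages or lymphatic vessels in the Lyve1 result was not tested.

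Oit3 (ENSMUSG00000009654, chr10:59422958-59441778) encodes a secreted protein with a zona pellucida domain that is specific to the sinusoidal endothelium within liver. Its levels were 26.0, 27.8 and 24.0 CPM in control livers. Vehicle livers had 37.7, 39.9, 31.5, 29.2 and 34.9 CPM, and hAAM livers 33.7, 33.5, 32.9 and 32.7 CPM. Each APAP liver was above each control liver, and the hAAM livers lay within 1.03-fold of each other. On the log2 scale the rise was 0.42 in vehicle livers (SE 0.0972, adjusted p = 0.00793) and 0.36 in hAAM livers (1.28-fold, SE 0.101, adjusted p = 0.0279). In hAAM livers the call was lost without control 1 (adjusted p = 0.0685), control 3 (0.108), hAAM 1 (0.0598) or hAAM 2 (0.058), and the value stayed between 0.31 and 0.41 without any one liver.

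Clec4g (ENSMUSG00000074491, chr8:3707064-3720651) encodes LSECtin, a C-type lectin of liver and lymph node sinusoids. It was 36.0, 36.2 and 35 CPM in control livers, a 1.03-fold range. In vehicle livers it was 23.5, 28.2, 29.6, 15.2 and 23.0 CPM, and in hAAM livers 21.8, 14.3, 25.7 and 27.7 CPM. The control livers were the 3 highest of the 12, and each APAP group spread nearly 2-fold. The log2 fold change was -0.58 (SE 0.215, adjusted p = 0.0598) in vehicle livers and -0.67 (SE 0.227, adjusted p = 0.0532) in hAAM livers by edgeR. DESeq2 called it lower in both (adjusted p = 0.0434 and 0.0302), and so did edgeR without the near-identical pair (log2 -0.66, adjusted p = 0.0413, and log2 -0.79, adjusted p = 0.039). An antisense gene with 7 to 38 reads per liver overlaps 146 bases of Clec4g exon, against 774 to 2301 reads for Clec4g.

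Kdr (ENSMUSG00000062960, chr5:75932827-75978458) encodes VEGF receptor 2, the main receptor for VEGF-A on all blood endothelium. It was 69.7, 79.2 and 72.8 CPM in control livers and 71.1, 76.8, 67.7, 63.7 and 64.6 CPM in vehicle livers. The hAAM livers were at 67.3, 65.8, 69.9 and 67.9 CPM. The control values lay within 1.14-fold of each other, with hAAM 3 just above the lowest control liver. For Kdr the log2 fold change was -0.10 (SE 0.0747, adjusted p = 0.318) in vehicle and -0.13 (SE 0.0782, adjusted p = 0.275) in hAAM livers.

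Without vehicle 3 and hAAM 4 the calls of Lyve1 and Oit3 were kept, and Bmp2 in hAAM livers and Clec4g in both groups were added, as given above. Lyve1 was then 1.40 in vehicle livers (SE 0.303, edgeR adjusted p = 0.00739) and 1.28 in hAAM livers (SE 0.317, adjusted p = 0.0206). Oit3 was 0.46 (SE 0.106, adjusted p = 0.0101) and 0.37 (SE 0.113, adjusted p = 0.0454). The ligands Wnt2, Wnt9b and Rspo3 were at -0.08, 0.43 and -0.07 in vehicle livers and at -0.41, 0.00 and -0.01 in hAAM livers, and Bmp2 was at -0.16 in vehicle livers. Gata4, Maf and Kdr were at -0.08, 0.28 and -0.09 in vehicle livers and at -0.12, 0.18 and -0.12 in hAAM livers. None of these passed, and the lowest adjusted p among them was 0.0688, for Maf in vehicle livers.

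**Figure D1:**
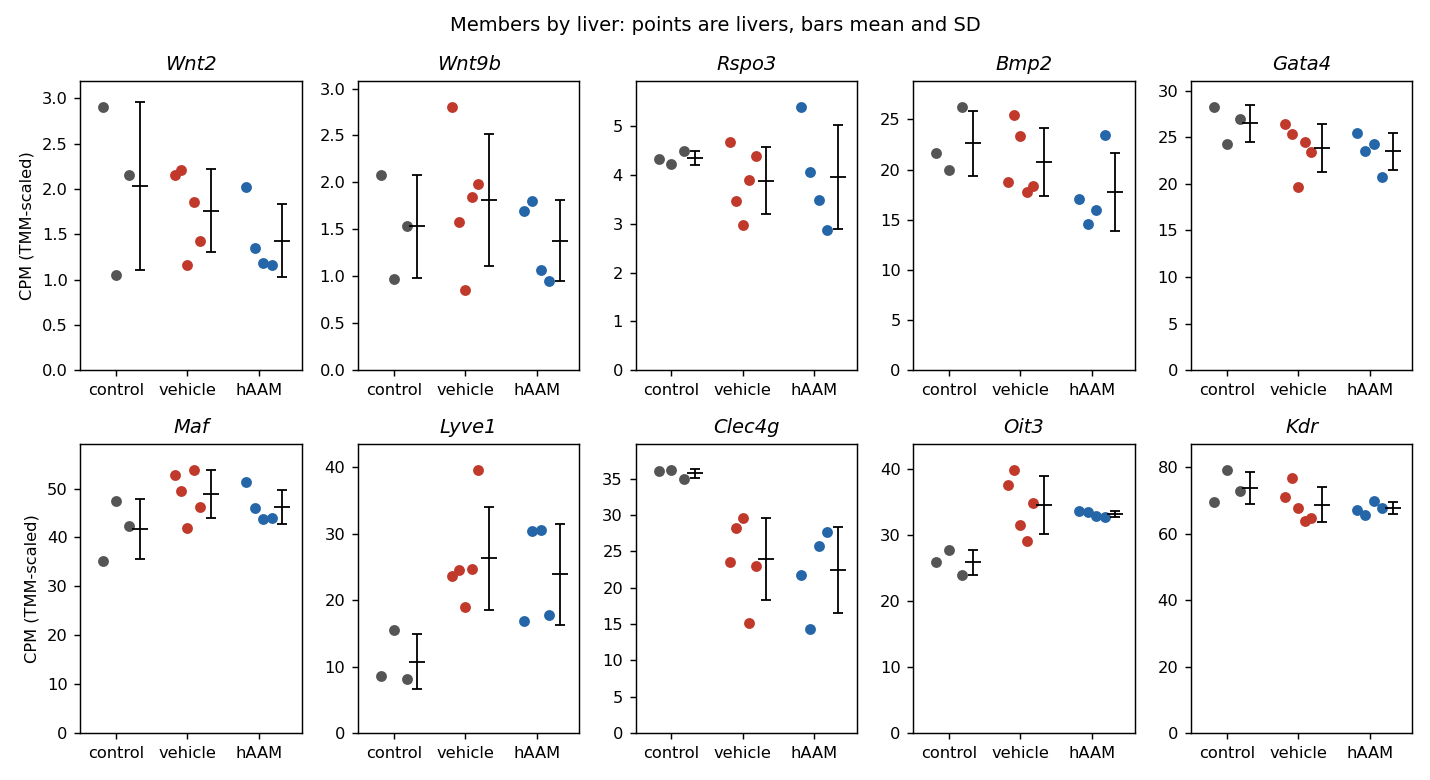
Level of each of the 10 genes in each liver, in CPM scaled by TMM, with control in gray, vehicle in red and hAAM in blue; points are livers and the black bars give the mean and SD of the 3, 5 and 4 livers. Lyve1 and Oit3 are higher in each APAP liver than in each control liver, Clec4g is lower, and the other 7 genes overlap.

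**Figure D2:**
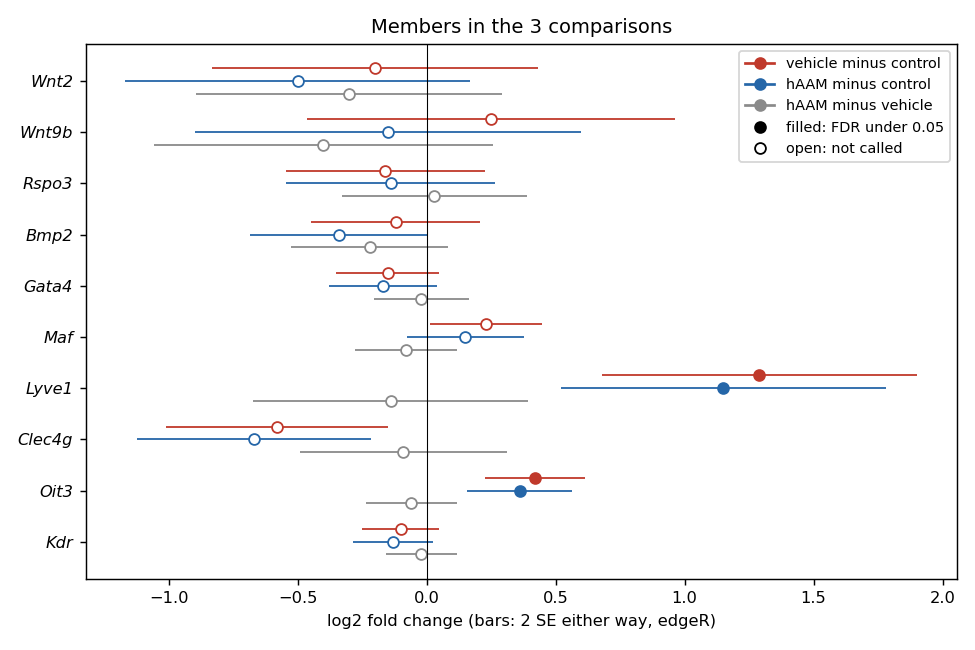
Log2 fold change of each gene in the 3 comparisons from the edgeR fit of 12 livers, with bars of 2 SE either way and filled points for adjusted p under 0.05. Only Lyve1 and Oit3 have filled points, in both comparisons with control, and the bars of Wnt2 and Wnt9b are the widest.

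The next question was whether hAAMs altered these genes in the injured liver. No gene passed the test between hAAM and vehicle livers (0 of 22581 higher or lower, 0.0% in each direction, with 1133 genes at an unadjusted p under 0.05 by edgeR, where DESeq2 called 1 gene). None of the 10 genes had an unadjusted p under 0.05. Their adjusted p values were 0.973 to 1.0, and no gene of the set had groups apart, where 1.4% of all genes did. The differences were narrowest for Kdr, at -0.02 (interval -0.16 to 0.12), Gata4, at -0.02 (-0.21 to 0.16), and Oit3, at -0.06 (-0.24 to 0.11). They were -0.08 (-0.28 to 0.12) for Maf, -0.22 (-0.53 to 0.08) for Bmp2, 0.03 (-0.33 to 0.38) for Rspo3 and -0.09 (-0.50 to 0.31) for Clec4g. For Lyve1 (-0.14, -0.67 to 0.39), Wnt2 (-0.30, -0.90 to 0.29) and Wnt9b (-0.40, -1.05 to 0.26) the intervals are wide enough to hold changes of over 1.5-fold, so a difference of that size was not detectable here. Without the near-identical pair, 0 of the 10 genes passed by either tool, while DESeq2 called 88 of all genes and edgeR 0.

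The general endothelial genes gave a scale for these values. Of 13 pan-endothelial genes, 7 rose and 0 fell in vehicle livers and 5 rose and 0 fell in hAAM livers, with a median log2 change of 0.53 and 0.36. Cdh5, the cadherin of endothelial junctions, was 42.3 ± 3.31 CPM in control (SD, n = 3), 85.2 ± 17.9 CPM in vehicle (n = 5) and 73.3 ± 24.9 CPM in hAAM livers (n = 4). It rose by log2 1.01 (SE 0.24, adjusted p = 0.009) and 0.79 (SE 0.247, adjusted p = 0.0405). Pecam1, which leukocytes also carry, rose by 1.00 in vehicle livers (adjusted p = 0.0167) and had 0.82 in hAAM livers (adjusted p = 0.0569). The endothelial ETS factor Erg rose by 0.70 (adjusted p = 0.0102) and 0.57 (adjusted p = 0.039). Without the near-identical pair 8 of the 13 genes rose in hAAM livers, Pecam1 among them (0.94, adjusted p = 0.0286), and without one liver the count ran from 0 (without control 3) to 7, with 2 or 3 without control 1, control 2, hAAM 1, hAAM 2 or vehicle 1. In hAAM livers the Cdh5 call was lost when any single control liver, vehicle 1, vehicle 2, hAAM 1 or hAAM 2 was left out (adjusted p = 0.0535 to 0.123), and the Erg call without control 1, control 3, vehicle 1, hAAM 1, hAAM 2 or hAAM 4 (adjusted p = 0.0513 to 0.14). Pecam1 lost its vehicle call without control 3 (adjusted p = 0.0723). The mean log2 CPM of the 13 genes was 4.05 to 4.39 in control, 4.44 to 4.84 in vehicle and 4.39 to 4.87 in hAAM livers.

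Each of the 10 genes was therefore also set against this mean within its own liver, a difference that does not depend on how the libraries are scaled. In vehicle against control livers, 5 of the 10 genes had an exact two-sided permutation p of 0.0179, the smallest that 5 against 3 livers allow; 30 such tests were made and these p-values are not adjusted. Because the reference itself rose, from a mean of 4.23 in control to 4.72 in vehicle livers, a gene with an unchanged CPM lies lower on this scale. The median of all 22581 genes tested was -0.48, and 40.7% of them were lower and 5.72% higher at an exact p under 0.05, so the 4 of 10 genes that were lower stand at the share of all genes. Of these 4, Rspo3, Gata4 and Kdr did not pass the test in CPM. Clec4g was lower by 1.11 on the log2 scale, from 0.93 ± 0.144 (SD, n = 3) to -0.18 ± 0.494 (n = 5; exact permutation p = 0.0179). Rspo3 was lower by 0.67, from -2.10 ± 0.217 to -2.77 ± 0.206. Its 3 control livers were at -2.13, -2.30 and -1.87 and its 5 vehicle livers at -2.48, -3.01, -2.84, -2.86 and -2.67, so the groups were apart on this scale and overlapped in CPM. Gata4 was lower by 0.65, from 0.49 ± 0.249 to -0.15 ± 0.105, and Kdr by 0.60, from 1.97 ± 0.139 to 1.38 ± 0.199. Lyve1 was higher by 0.82, from -0.87 ± 0.386 to -0.05 ± 0.306.

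The other 5 genes did not reach p under 0.05 on this scale in vehicle livers. Bmp2 and Wnt2 had differences of the same size, -0.62 for both, with exact p values of 0.0536 and 0.161. Without control 2, which held the lowest Wnt2 value of the controls, they were -0.78 and -1.11 (exact p = 0.0476 for each), and Maf was -0.39 without control 1 (exact p = 0.0476). Wnt9b was at -0.28 (exact p = 0.482), Maf at -0.26 (exact p = 0.107) and Oit3 at -0.08 (exact p = 0.643). In hAAM against control livers none of the 10 genes reached p under 0.05, where the smallest possible p is 0.0286, the median of all genes was -0.38, and 13.1% of all genes were lower and 3.01% higher at p under 0.05. The differences there were -1.11 for Clec4g (exact p = 0.0857), 0.76 for Lyve1 (0.114), -0.57 for both Rspo3 (0.0571) and Gata4 (0.0857), and -0.52 for Kdr (0.0571). They were -0.82 for Wnt2 (exact p = 0.171), -0.76 for Bmp2 (0.0857), -0.53 for Wnt9b (0.2), -0.24 for Maf (0.229) and -0.04 for Oit3 (0.8). Between hAAM and vehicle livers the exact p values of the 10 genes were 0.317 to 0.984, with differences from -0.25 to 0.10, where 0.779% of all genes were lower and 1.48% higher at p under 0.05.

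The relative levels rested on few livers and on the scale chosen. Leaving out vehicle 1, 2, 4 or 5 raised the p of Clec4g to 0.0571, and the same p was reached for Kdr without vehicle 1 or 2 and for Rspo3 without vehicle 5. Without the near-identical pair Clec4g (-1.27), Rspo3 (-0.65), Gata4 (-0.65), Kdr (-0.66) and Lyve1 (0.86) had an exact permutation p of 0.0286, the smallest that 4 against 3 livers allow. With the other 16 sinusoidal markers as the scale in place of the pan-endothelial genes, Clec4g, Gata4, Kdr and Lyve1 kept p under 0.05 in vehicle livers, Rspo3 had -0.38 (exact p = 0.0536), and Oit3 was at 0.21 (exact p = 0.0536).

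**Figure D3:**
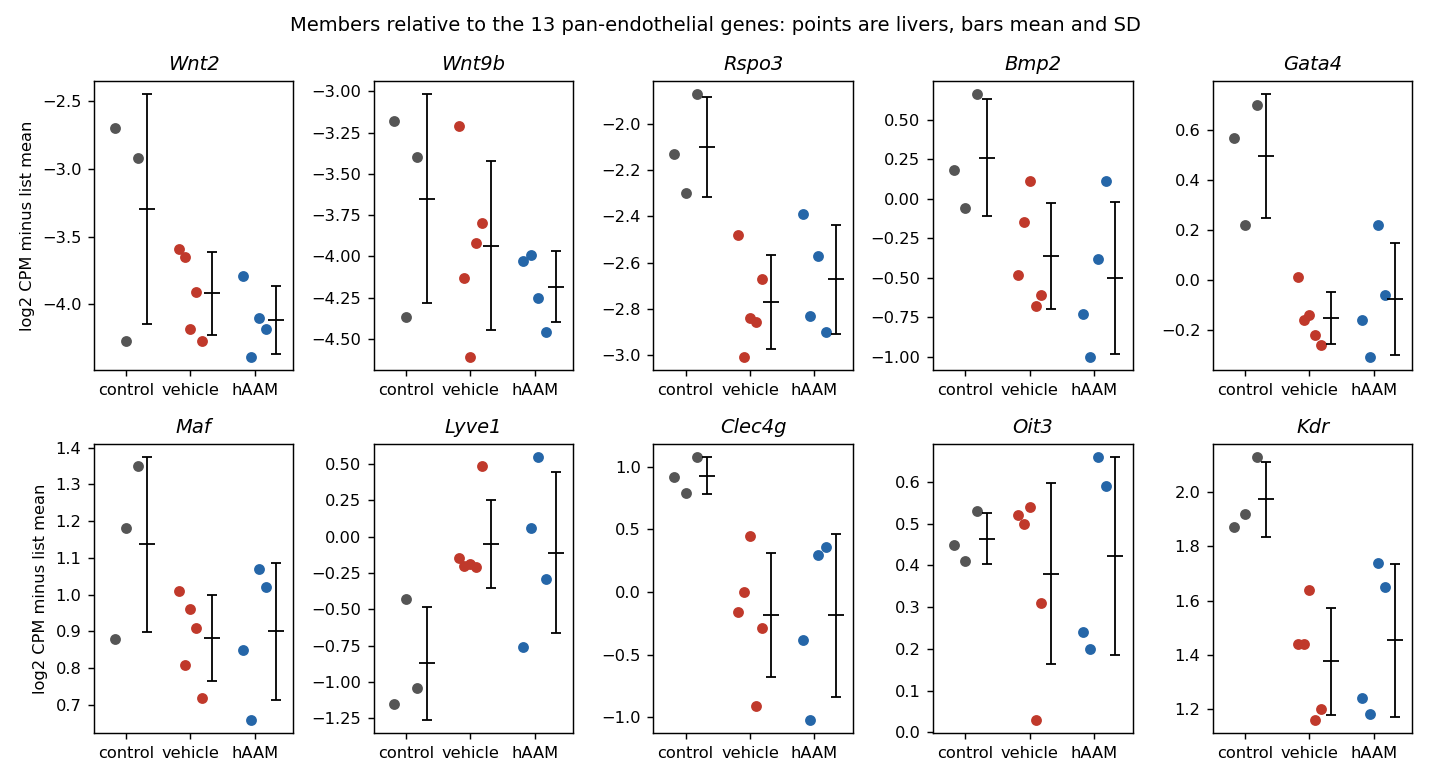
Log2 CPM of each gene minus the mean log2 CPM of the 13 pan-endothelial genes in the same liver, with points for livers and black bars for the mean and SD of each group. Rspo3, Gata4, Clec4g and Kdr are lower in each vehicle liver than in each control liver, and Lyve1 is higher; the median of all genes on this scale is -0.48 in vehicle livers.

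Other sinusoidal markers were called in both directions. Of 16 of them, 4 rose and 3 fell in vehicle livers and 3 rose and 3 fell in hAAM livers. Among all genes tested, 15.0% were called higher and 14.8% lower in vehicle livers, and 10.7% and 9.96% in hAAM livers. The same shares apply to the counts of the other lists, and whether a list differs from them was not tested. The scavenger receptors Cd36 and Stab1, which macrophages also express, were 0.86 and 0.62 higher on the log2 scale in vehicle livers (adjusted p = 0.0116 and 0.0175), with 1.20 (adjusted p = 0.00492) and 0.48 (adjusted p = 0.0714) in hAAM livers. Ehd3, an endocytic trafficking protein of sinusoidal and kidney endothelium, fell by 0.64 (adjusted p = 0.0236) and 0.67 (adjusted p = 0.0322). With scaling by total counts alone no gene of this list was called lower, and 12 and 7 were called higher. With one liver left out, the number that rose fell to 1 in vehicle livers (without control 1) and to 1 in hAAM livers (without control 1 or 2), and Ehd3 lost its vehicle call without control 2, control 3 or vehicle 5 (adjusted p = 0.0508 to 0.0854) and its hAAM call when any single control liver, hAAM 1 or hAAM 2 was left out (adjusted p = 0.0621 to 0.106). In vehicle livers the Cd36 call was lost without control 1 or 3 (adjusted p = 0.0526 and 0.0504) and the Stab1 call without control 1 or 2 (adjusted p = 0.0607 and 0.0532). Stab1 passed in hAAM livers without the near-identical pair (log2 0.57, adjusted p = 0.0311).

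Some other endothelial regulators were called higher, and their difference from Gata4 and Maf was not tested. Of 16 further transcription factors of endothelium, 9 rose and 0 fell in vehicle livers, and 7 and 0 in hAAM livers. Id1, a target of BMP signaling, rose most, from 2.67 ± 0.356 CPM in control to 20 ± 6.67 CPM in vehicle and 13.9 ± 5.30 CPM in hAAM livers (log2 2.90, adjusted p = 0.000385, and 2.38, adjusted p = 0.00215). Lyl1, a hematopoietic and endothelial factor, rose by 1.24 (adjusted p = 0.00601) and 1.19 (adjusted p = 0.0134). In hAAM livers 4 of the list rose without control 3 or hAAM 1.

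Among 13 genes of capillary-type or activated endothelium, 6 rose and 1 fell in vehicle livers, and 4 and 1 in hAAM livers. Apln, the apelin peptide of sprouting tip cells, was 0.0198 to 0.11 CPM in control livers, 0.213 to 4.29 CPM in vehicle livers and 0.155 to 7.09 CPM in hAAM livers (log2 4.94, adjusted p = 0.0237, and 5.05, adjusted p = 0.0312). Angpt2, a destabilizing Tie2 ligand, rose by 1.98 (adjusted p = 0.0126) and 1.81 (adjusted p = 0.0289). Icam1, a leukocyte adhesion molecule that many cell types express, fell by 2.34 (adjusted p = 0.00741) and 2.49 (adjusted p = 0.0124). One control liver stood at 229 CPM and the others at 28.6 and 31.5 CPM, with vehicle livers at 15.2 to 23.4 CPM and hAAM livers at 12.5 to 21.7 CPM. The size of the fall rested on the liver at 229 CPM. DESeq2 gave no adjusted p for Icam1. Without control 3 only 1 gene of this list rose in vehicle livers and 0 in hAAM livers, where 0 to 2 rose without control 1, control 2, hAAM 1 or hAAM 2. Apln lost its vehicle call when any single control liver was left out (adjusted p = 0.0656 to 0.0829), and its hAAM call then and also without hAAM 1 or hAAM 2 (adjusted p = 0.06 to 0.104). Its control livers had only 1 to 7 reads, and the hAAM value was 3.85 without hAAM 2. Angpt2 lost its call without control 3 in vehicle livers (adjusted p = 0.0563) and without control 1, control 3 or hAAM 2 in hAAM livers (adjusted p = 0.0692 to 0.107).

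By zone, edgeR called 4 of 8 periportal endothelial genes higher and 0 lower in vehicle livers, with 1 and 0 in hAAM livers, where DESeq2 called 5 and 1 in vehicle and 3 and 0 in hAAM livers and total counts alone gave 6 and 0 in both. They included Msr1, which is also a macrophage receptor (log2 0.96, adjusted p = 0.0236), Ntn4 (0.79, adjusted p = 0.0273) and Sox17 (0.77, adjusted p = 0.0304). In hAAM livers these 3 had 0.75, 0.57 and 0.59, with adjusted p values of 0.0869, 0.124 and 0.111. The vehicle count rested on single livers: 0 genes rose without control 1 or control 3, 1 without vehicle 4 or vehicle 5, and 2 without vehicle 2. The hAAM count was 0 when a single liver was left out, other than control 2 (4 genes) or hAAM 3 (2 genes). Without the near-identical pair 3 rose and 1 fell in vehicle livers, and Msr1 passed in hAAM livers (0.88, adjusted p = 0.0387). Of 8 genes of pericentral endothelium, where Wnt2, Wnt9b and Rspo3 are made, 1 rose and 1 fell in each APAP group. Fabp4, a fatty acid carrier that adipocytes and macrophages also express, rose by 1.98 (adjusted p = 0.00364) and 1.63 (adjusted p = 0.0151), and the homeobox gene Lhx6 fell by 0.91 (adjusted p = 0.00244) and 1.18 (adjusted p = 0.0016). The hAAM call of Fabp4 was lost without control 1 (adjusted p = 0.0569) or control 3 (adjusted p = 0.0644).

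Genes of the Wnt pathway around the 3 ligands were read from the same fit. Of 5 other Wnt and R-spondin genes with enough reads, of 7 in the table, edgeR called 0 in either APAP group, whereas DESeq2 called 1 higher in vehicle livers and 1 higher and 1 lower in hAAM livers. Wnt5a, a ligand of beta-catenin-independent signaling, was nearest at log2 0.77 (edgeR adjusted p = 0.0532) in vehicle livers, and it was the gene that DESeq2 called higher (adjusted p = 0.0256 and 0.0403). Without one liver edgeR called 1 gene of these 5 higher in vehicle livers (without control 1, vehicle 2, vehicle 3, hAAM 1 or hAAM 3) and 1 lower (without control 1), and in hAAM livers 1 higher without hAAM 3 and 1 lower without control 1. On the receiving side, of 20 genes for Wnt secretion and reception, 6 rose and 5 fell in vehicle livers and 3 rose and 4 fell in hAAM livers, but by total counts alone the split was 8 and 3 in vehicle and 8 and 2 in hAAM livers. Lgr5, the R-spondin receptor of pericentral hepatocytes, fell from 13 ± 2.84 CPM in control to 1.42 ± 0.663 CPM in vehicle and 3.16 ± 1.60 CPM in hAAM livers (log2 -3.21, adjusted p = 0.000201, and -2.04, adjusted p = 0.0046). Wls, which carries Wnt proteins to the cell surface, rose from 5.04 ± 0.681 CPM to 10.1 ± 2.06 CPM and 10.5 ± 2.55 CPM (log2 1.01, adjusted p = 0.00412, and 1.05, adjusted p = 0.00657). The Frizzled receptor Fzd7 fell by 0.79 and 0.93 (adjusted p = 0.00424 and 0.00455). When any single control liver or hAAM 4 was left out, 1 gene of this list rose in hAAM livers.

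Known Wnt target genes of pericentral hepatocytes fell. In bulk liver, fewer of these hepatocytes and less RNA per hepatocyte cannot be told apart. Of 12 pericentral Wnt target genes, 9 fell and 0 rose in vehicle livers and 8 and 0 in hAAM livers, with Glul (glutamine synthetase) at 972 ± 293 CPM in control, 50.2 ± 9.33 CPM in vehicle and 54.2 ± 15.1 CPM in hAAM livers (log2 -4.27 and -4.17). The glutamate transporter Slc1a2 fell most, from 205 ± 41.7 CPM to 0.841 ± 0.663 CPM in vehicle livers (log2 -7.97, adjusted p = 0.00153). In hAAM livers it was at 0.352 to 42.9 CPM (log2 -4.15, adjusted p = 0.0315, and 0.0684 without the near-identical pair). Its median there was 1.49 CPM, so the size of the hAAM value rested on the liver at 42.9 CPM. The ornithine aminotransferase Oat fell by 3.52 and 2.72 (adjusted p = 0.000201 and 0.002). The hAAM call of Slc1a2 was lost when any single control liver, hAAM 1, hAAM 2 or hAAM 4 was left out (adjusted p = 0.0522 to 0.074). Of 8 Wnt antagonists, the secreted Frizzled-related gene Frzb rose by 1.27 (adjusted p = 0.0203) and the Wnt deacylase Notum fell by 1.57 (adjusted p = 0.0214) in vehicle livers. In hAAM livers Frzb rose by 1.30 (adjusted p = 0.0293) and Notum had -1.27 (adjusted p = 0.0778). The Frzb call was lost in both groups when any single control liver was left out (adjusted p = 0.0518 to 0.0931) and in hAAM livers also without hAAM 1 or hAAM 2, and the Notum call without control 1 (adjusted p = 0.0868). Without the near-identical pair 2 of this list rose in vehicle livers.

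Around Bmp2, 3 of 24 BMP ligands, receptors and targets rose and 9 fell in vehicle livers, and 2 rose and 9 fell in hAAM livers, but by total counts alone the split was 10 and 2 in vehicle and 4 and 4 in hAAM livers. Without the near-identical pair 1 rose and 5 fell in hAAM livers, and 4 or 5 fell without control 1, control 3 or hAAM 2. The number that rose was 1 in vehicle livers without control 3 and 0 in hAAM livers without control 2 or 3. The receptor Acvr2b fell by 1.02 and 0.78 (adjusted p = 0.00404 and 0.027, the second 0.0503 without the pair and 0.0707 to 0.0893 without control 1, control 3, hAAM 1 or hAAM 2). The signal transducer Smad9 rose by 0.98 and 1.29 (adjusted p = 0.0325 and 0.0164; without the pair adjusted p = 0.0706 in vehicle livers), and the inhibitory Smad7 by 0.94 in vehicle livers (adjusted p = 0.0107). Smad9 lost its call without control 2 or 3 in both groups and, in vehicle livers, also without vehicle 3, 4 or 5 (adjusted p = 0.0558 to 0.122). Hamp, the hepcidin gene on which Bmp2 acts, had log2 -0.17 (adjusted p = 0.86) and -0.25 (adjusted p = 0.814). The vehicle value rested on vehicle 5: Hamp was 28.1 CPM at the lowest and 546 CPM at the median in vehicle livers, against a control median of 489 CPM, and without vehicle 5 the value was 0.14 (adjusted p = 0.6). By total counts alone the values were 0.18 and 0.07. Around Kdr, of 10 VEGF and angiopoietin genes, 2 rose and 2 fell in vehicle livers, and 1 rose and 0 fell in hAAM livers. The vehicle counts stand near the shares of all genes tested, 15.0% higher and 14.8% lower, and in hAAM livers those shares were 10.7% and 9.96%. Vegfc, the ligand of lymphatic and sinusoidal VEGF receptor 3, rose by 0.71 and 0.62 (adjusted p = 0.0105 and 0.0328), Vegfb fell by 0.43 in vehicle livers (adjusted p = 0.00433), as did the VEGF co-receptor Nrp1 by 0.35 (adjusted p = 0.0415, and 0.0693 without the pair), and Vegfa, the main ligand of Kdr, had -0.48 and -0.51 (adjusted p = 0.0652 and 0.0815). The Nrp1 value was 0.01 by total counts alone, and its call was lost without control 1, control 3, vehicle 1, vehicle 2, vehicle 3, hAAM 2 or hAAM 4. Without the pair Vegfa passed in both (-0.57, adjusted p = 0.025, and -0.64, adjusted p = 0.0299), and Vegfc lost its hAAM call when any single control liver, hAAM 1 or hAAM 2 was left out (adjusted p = 0.0618 to 0.0991).

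Scaling by total counts alone, which moved the median of all genes to 0.36 in vehicle and 0.32 in hAAM livers, also raised other counts of the lists. By that scaling 11 and 10 pan-endothelial genes rose, 11 of the endothelial transcription factors rose in each group, and 8 and 7 genes of capillary-type endothelium rose, with the numbers that fell as before. Of the 5 other Wnt and R-spondin genes 3 and 2 rose. Of the pericentral Wnt targets 2 rose and 8 fell in vehicle livers and 0 and 7 in hAAM livers, and of the Wnt antagonists 2 rose and 1 fell in vehicle livers. Of the VEGF and angiopoietin genes 2 rose and 0 fell in vehicle livers. In hAAM livers DESeq2 called 2 of these higher and 1 lower, and 1 Wnt antagonist in each direction.

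**Figure D4:**
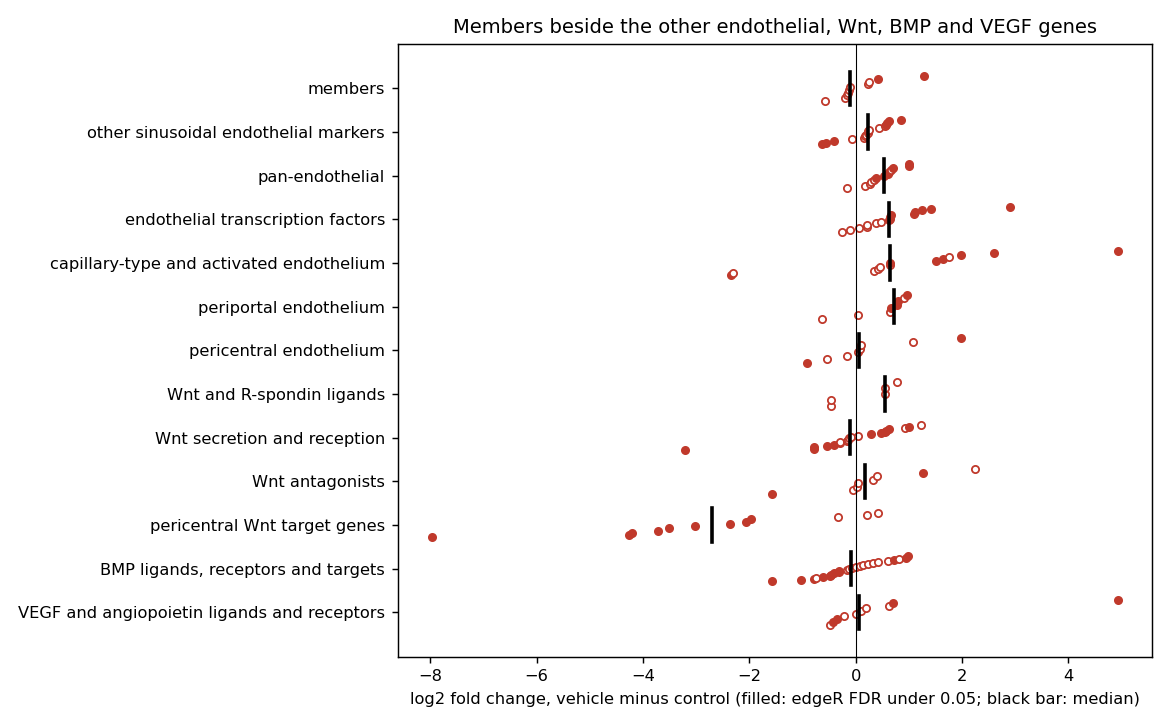
Log2 fold change in vehicle against control livers of the 10 genes and of the 12 gene lists around them; points are genes, filled where adjusted p is under 0.05, and the black bar is the median of the list. The ligand, factor and marker set has Lyve1 (1.29) and Oit3 (0.42) as filled points and Clec4g at -0.58, the pan-endothelial median is 0.53, and the pericentral Wnt targets lie far to the left with a median of -2.70.

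Markers of other liver cells moved with the injury as well. Of 8 stellate cell markers, which share Rspo3 with the endothelium, 3 rose and 0 fell in vehicle livers and 2 and 0 in hAAM livers, led by Pdgfrb (log2 1.37 and 1.27), Des (1.25 and 1.26) and Hand2 (0.79, with 0.53 at adjusted p = 0.136 in hAAM livers). Without control 3, 0 of them rose in hAAM livers, where the Des call (adjusted p = 0.0486) was kept only without vehicle 3, vehicle 4, hAAM 3 or hAAM 4; in vehicle livers the Des call was lost without control 2, control 3, vehicle 1, vehicle 2, vehicle 4 or vehicle 5 and the Hand2 call without control 1. Their sum was 333 to 441 CPM in control, 376 to 411 CPM in vehicle and 381 to 425 CPM in hAAM livers. Of 5 red cell markers, the 4 globin genes Hba-a1, Hba-a2, Hbb-bs and Hbb-bt rose in vehicle livers (log2 2.46 to 2.56) and the heme synthesis gene Alas2 fell (log2 -1.66). The globin genes are near-identical copies, between which reads may be divided. For Hba-a1 the highest vehicle liver stood at 841 CPM, where the median was 157 CPM in vehicle and 58.5 CPM in control livers, so the mean change leaned on that liver. No globin gene passed in vehicle livers when any single control liver was left out, and in hAAM livers the edgeR fit of 12 livers called 0 of them (adjusted p = 0.0618 to 0.0699), whereas DESeq2, an edgeR fit of these groups alone, total counts alone and edgeR without the near-identical pair each called all 4. Their sum was 135 to 240 CPM in control, 220 to 2030 CPM in vehicle and 226 to 733 CPM in hAAM livers. By edgeR, hepatocyte markers fell for 2 of 8 genes in vehicle livers, Asgr1 and Hnf4a, and 0 of 8 in hAAM livers. Neither was called by total counts alone, or when any single control liver, vehicle 1, vehicle 4 or vehicle 5 was left out, and DESeq2 called 3 lower in vehicle livers and 1 in hAAM livers. No gene of the neutrophil, cholangiocyte or B cell lists passed in edgeR against control, and DESeq2 called 1 neutrophil gene higher in vehicle livers. By total counts alone 1 neutrophil, 2 cholangiocyte, 3 Kupffer cell, 5 stellate cell and 1 hepatocyte gene were called higher in vehicle livers, with 0 lower. The part of these cells in the results was not tested.

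Some pairs of these genes varied together among livers of one group and others did not. Over the 12 livers, after the mean of each group was taken off, Pearson's r of the 45 pairs ran from -0.632 (Bmp2 with Lyve1) to 0.845 (Wnt9b with Gata4), with a median of 0.109. Wnt2 with Gata4 had 0.809, Wnt9b with Rspo3 0.778, Wnt2 with Wnt9b 0.764 and Oit3 with Kdr 0.744. Without vehicle 3 and hAAM 4 these were 0.632 for Wnt9b with Gata4, 0.909 for Wnt2 with Gata4, 0.614, 0.700 and 0.771 in the same order, over 10 livers. Over the same 10 livers the median was -0.0144 and 21 of the 45 pairs were positive, against 30 of 45 with all livers, and Lyve1 had -0.907 with Wnt2 and -0.853 with Gata4, where all 12 livers gave -0.491 and 0.0216. These values describe genes measured in the same libraries and carry no test.

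The comparison of patterns took in 15496 genes, those whose mean log2 CPM was 0 or more. The closest in pattern by the same measure over 12 livers, both near-identical ones included, were Ppp1ca, Smap2 and Tacc1 for Wnt2 (r = 0.948, 0.927 and 0.925) and Stx6, Sdk2 and Rpl35a for Wnt9b (0.945, 0.945 and 0.940). For Rspo3 the closest named gene was Elp3 (0.930), after the gene models Gm6278 and Gm7536, and for Bmp2 it was Nr2f6 (0.906). Srfbp1, Zfp703 and Zfp516 were closest to Gata4 (0.978, 0.961 and 0.941) and Pacs2 to Maf (0.959). Il16 led for Lyve1 (0.955), Srrm4 for Clec4g (0.975), Sgsm3 for Oit3 (0.899) and Armcx5 for Kdr (0.902). None of the 10 genes was among the 3 closest of another.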

How the data were processed

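Bulk RNA-seq of 12 livers was analysed, with 3, 5 and 4 libraries in the control, vehicle and hAAM groups as given by the labels. The authors trimmed reads with cutadapt 4.6, aligned them to GRCm38 with STAR 2.7.1a and counted reads per gene with summarizeOverlaps, and the deposited values are these raw counts. Libraries were rRNA-depleted and directional. Names and coordinates came from GENCODE vM21 (24092 of 24187 IDs matched). Groups were compared in a single edgeR 4.0.16 fit (quasi-likelihood, TMM, filterByExpr), with Benjamini-Hochberg adjustment over 22581 genes at 0.05. TMM factors were 0.832 to 0.859 in control and 0.933 to 1.14 in APAP livers. Log2 CPM used a prior count of 2. DESeq2 1.42.0 and other scalings, filters and sample sets were alternatives. The script was tested on simulated data. In vehicle against control it called 46 of 100 genes changed 2-fold and 81 of 100 changed 4-fold, so a 2-fold change could be missed. Beyond the 10 genes, up to 3 genes per list were named, those with the largest log2 fold change in vehicle livers among genes with adjusted p under 0.05 and mean log2 CPM of at least 0; Wnt5a, Hamp, Vegfa, Xcr1, Alas2 and Hbb-bt were added after their values were seen. A gene that the rule names is not reported here. The 10 genes and the lists were chosen with earlier results of these data known.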

Additional observations from a re-analysis of the deposited data

Results flagged for a closer look

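Lyve1 in vehicle 5 stood apart from the other vehicle livers. Set against the 13 pan-endothelial genes of the same liver, its level was 0.49 on the log2 scale, where the other 4 vehicle livers lay between -0.21 and -0.15. The gap was 0.916 of the whole range of the group. Of 40 groups of values examined in this way this was the only one set apart, and chance alone sets apart about 1 in 20. Lyve1 kept its call in vehicle against control livers without vehicle 5.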

How the results depend on the processing

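Lyve1 and Oit3 were called higher in vehicle against control livers under every alternative run, and no call of a gene of the set changed direction. The counts of calls, and the small differences around 0, moved as follows, and the cause was not tested. In vehicle against control, 6719 genes were called (3380 higher, 3339 lower), 4253 with the replicate number as a block and 4633 to 7197 without one liver. By total counts alone the split was 8637 higher and 1110 lower, the median of all genes moved to 0.36, and 4 of the 10 genes were called higher, Maf (0.58) and Kdr (0.24) beside Lyve1 and Oit3; 2 to 3 were called without one liver. On that scale, to be read against 0.36, Wnt2 was 0.15, Rspo3 0.19, Bmp2 0.22 and Gata4 0.20. In hAAM against control, 4666 genes were called (2418 higher, 2248 lower), 2729 in a fit of these groups alone, 2959 with the block, 7340 by total counts alone (6559 higher, 781 lower, median 0.32) and 2419 to 5456 without one liver. Of the 10 genes, 0 to 4 were called without one liver (0 without control 1, control 3 or hAAM 2, 1 without hAAM 1 and 4 without hAAM 4), and 4 without the near-identical pair by edgeR and by DESeq2. By total counts 3 of the 10 genes were called, Maf (0.46, adjusted p = 0.033) beside Lyve1 and Oit3, and Wnt9b was 0.18, Rspo3 0.18, Gata4 0.13 and Kdr 0.17. In hAAM against vehicle, DESeq2 called 1 gene and, without the pair (an alternative chosen after seeing the data), 88, and 0 to 1 were called without one liver (1 without vehicle 3). Rspo3 was -0.01 by total counts and Lyve1 0.01 with the block.

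Without one liver, Wnt2 in vehicle against control ran from -0.52 to 0.14 and Wnt9b in hAAM against control from -0.39 to 0.14. In hAAM against vehicle, Rspo3 ran from -0.16 to 0.15, Gata4 from -0.09 to 0.03, Lyve1 from -0.28 to 0.06, Clec4g from -0.22 to 0.07 and Kdr from -0.05 to 0.02. Relative to the pan-endothelial genes, 5 genes had exact p under 0.05 in vehicle against control and 3 to 7 without one liver (3 without vehicle 1, 2 or 5). In hAAM against control 0 did, and 3 with the other sinusoidal markers as the scale, on which Maf was 0.06 and Oit3 0.26; with one of these livers left out the groups are 3 against 3 or 4 against 2, which cannot reach 0.05, so no such test was run. On that scale Wnt9b was 0.01, Maf 0.04 and Oit3 0.21 in vehicle against control. Without one liver, relative Oit3 in vehicle against control ran from -0.12 to 0.01. In hAAM against vehicle, Bmp2 ran from -0.34 to 0.03, Gata4 from -0.03 to 0.15, Maf from -0.04 to 0.10 (0.00 without the pair), Lyve1 from -0.28 to 0.16, Clec4g from -0.19 to 0.27, Oit3 from -0.05 to 0.12 and Kdr from -0.02 to 0.17. Same-numbered livers had correlations of -0.648 to 0.519 over 10 pairs. No reference was set beside them, so they do not settle whether the numbers mark anything shared. With the block, 1 periportal gene rose in vehicle livers (4 without it), 0 globin genes rose (4; in hAAM livers 4 rose, 0 without it), 0 hepatocyte markers (2) and 0 lymphatic markers (2) fell, and Icam1 lost its call in both groups (-1.82, adjusted p = 0.058, and -1.99, adjusted p = 0.0513). Wnt9b (44 to 163 reads per liver) and Wnt2 (60 to 152) had the fewest reads and the widest intervals.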
